A study of Mus musculus with 11 samples.

Results

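Myb, Mybl2 and the genes of the Myc-Max network were followed as 10 genes among the 51912 in the count table. Each was found by its mouse symbol through its Ensembl identifier, and all 10 passed the filter on low counts that left 15703 genes for testing. They comprise the MYB family genes Myb and Mybl2, the MYC genes Myc and Mycn, their shared partner Max, and the MAX-binding repressor genes Mxd1, Mxd3, Mxd4, Mxi1 and Mnt. RNA-seq was performed on lineage-negative bone marrow of C57BL/6 mice carrying 2 retroviral vectors, one expressed constitutively and marked by GFP and the other switched on by Cre recombinase and marked by a red fluorescent protein. Cells came from Rosa26 ERT2-Cre donors per the study's description of the system, so that 4-hydroxytamoxifen activates Cre. CSF3R-only cells (n = 4) carried constitutive CSF3R T618I with an empty inducible vector. CSF3R-first cells (n = 3) carried constitutive CSF3R T618I with inducible CEBPA V314VW, and CEBPA-first cells (n = 4) carried constitutive CEBPA V314VW with inducible CSF3R T618I. All 3 groups therefore carried the activating receptor mutation CSF3R T618I, in CEBPA-first on the inducible vector. All were sorted as cells positive for both markers and then cultured for 48 h with 4-hydroxytamoxifen. For its colony assay the study put the delay of the second oncogene at about 48 h. Expression of the 2 introduced genes was not measured here. Both oncogenes were driven by retroviral vectors rather than by their own loci, and no group carried CEBPA V314VW alone. The labels give no donor age, while the study's methods state that female mice within a range of ages were used. The labels do not say whether replicates came from separate mice or cultures, so p-values measure the spread between these samples. Because the 3 comparisons share samples, they are not independent of one another.

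MYC binds DNA as a dimer with MAX at E-box sequences and activates genes of growth, ribosome assembly and metabolism. The MXD proteins, MXI1 and MNT compete for MAX and recruit SIN3 and histone deacetylases to repress the same kind of site, and MXD1 is known for its rise as myeloid cells mature. MYB maintains immature haematopoietic cells and declines during differentiation, while B-MYB, the product of Mybl2, works with the MuvB complex and FOXM1 on genes of the G2 and M phases.

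Promoter sequence from RefSeq (GRCm38.p6) was given for 9 of the 10 genes. The letters of 4 motifs were searched on both strands in the 250 bases before each start, and are in capitals below where present: the E-box letters CACGTG read by MYC-MAX and MXD-MAX dimers, GGCGGGA for E2F, TTGCNNAA for C/EBP and TTCNNNGAA for STAT. They occur in 6.02%, 9.75%, 9.56% and 7.02% of the 32851 promoter windows of the same length. The letters AACNG for MYB occur in 74.2% of windows and are not marked. The 4 promoters shown belong to the pair of MYB genes, to the repressor gene with the largest differences in CEBPA-first, and to a repressor gene whose window holds an E-box.
Myb promoter, chr10:21160985-21161234 on the - strand: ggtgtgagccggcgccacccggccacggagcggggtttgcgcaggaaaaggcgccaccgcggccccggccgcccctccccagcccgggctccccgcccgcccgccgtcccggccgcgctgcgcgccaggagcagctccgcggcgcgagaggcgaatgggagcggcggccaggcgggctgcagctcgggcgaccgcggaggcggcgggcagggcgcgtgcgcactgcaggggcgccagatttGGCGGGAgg
Mybl2 promoter, chr2:163054385-163054634 on the + strand: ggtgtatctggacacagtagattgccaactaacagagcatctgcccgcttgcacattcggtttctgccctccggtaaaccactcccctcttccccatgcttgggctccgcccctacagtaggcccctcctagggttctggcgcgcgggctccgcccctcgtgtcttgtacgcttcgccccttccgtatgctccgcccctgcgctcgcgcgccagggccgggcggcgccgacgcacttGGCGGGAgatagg
Mxd1 promoter, chr6:86669160-86669409 on the - strand: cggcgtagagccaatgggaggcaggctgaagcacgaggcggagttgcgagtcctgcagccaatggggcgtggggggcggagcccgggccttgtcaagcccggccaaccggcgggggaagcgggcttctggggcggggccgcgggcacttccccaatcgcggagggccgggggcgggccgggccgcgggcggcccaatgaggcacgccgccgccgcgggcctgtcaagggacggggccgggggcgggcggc
Mxd4 promoter, chr5:34187711-34187960 on the - strand: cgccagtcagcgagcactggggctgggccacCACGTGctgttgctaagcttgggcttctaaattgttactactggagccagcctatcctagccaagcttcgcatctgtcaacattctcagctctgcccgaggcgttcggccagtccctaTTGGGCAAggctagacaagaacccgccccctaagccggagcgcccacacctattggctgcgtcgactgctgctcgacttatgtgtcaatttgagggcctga
In Myb and Mybl2 the E2F letters begin 9 and 13 bases before the start. The same letters also lie in the windows of the repressor genes Mxd3 and Mnt and in 2 windows of Mxi1, so they are not particular to the MYB genes. The Mxd1 window holds none of the 4 marked kinds. Mxd4 holds an E-box beginning 219 bases before the start and C/EBP letters beginning 101 bases before it, and Mnt was the other gene with an E-box, 123 bases before its start. These are matches of letters and not measured binding.

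Sequencing was deep, with total counts of 47905747 to 72268346 per sample, and the lowest count of any of the 10 genes in any sample was 495, for Mxd3. Levels are given in CPM, counts divided by a library size that was scaled by the trimmed mean of M-values (TMM). Differences are log2 fold changes of a quasi-likelihood fit in edgeR, and p was adjusted over all 15703 genes by the method of Benjamini and Hochberg. A gene was called at an adjusted p under 0.05. In CEBPA-first against CSF3R-only, 8 of the 10 genes were called, 4 higher and 4 lower, where 72.0% of all tested genes were called, 35.4% higher and 36.6% lower. In CEBPA-first against CSF3R-first 7 were called, 4 higher and 3 lower (48.3% of all genes, 24.0% higher and 24.3% lower), and in CSF3R-first against CSF3R-only also 7, 4 higher and 3 lower (42.7% of all genes, 21.6% higher and 21.1% lower). The balance of all genes rests on the scaling: by library size alone, without TMM, 6485 were higher and 4949 lower in CEBPA-first against CSF3R-only, in place of 5561 and 5753, and 4324 higher and 2658 lower in the last comparison, in place of 3385 and 3318. With the study's added threshold of an absolute log2 fold change over 1, the 3 counts were 4, 1 and 0, against 27.0%, 12.8% and 6.65% of all genes. The samples of the compared groups did not overlap in 8, 7 and 5 of the 10 genes, and in 68.7%, 52.2% and 42.1% of all genes. Calls were thus common across the transcriptome, and the share called among these genes is not a feature particular to them.

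The library CSF3R-first A stood apart from the others of its group. Over all genes, its counts differed from those of B and C by a chi-square of 99.1 and 74.5 per degree of freedom, against 22.2 between B and C and 9.11 to 38.9 between replicates of the other groups. Its neutrophil maturation markers summed to 25539 CPM, against 14662 in B and 17672 in C, and their part in the levels of the 10 genes was not tested. The A library of CSF3R-only lay to the same side of its group. Its neutrophil sum was 32999 CPM against 26879 to 29315, and its Mxd1 was 1048 against 801 to 906. Its Myb and Myc were the lowest, at 88.6 and 119.9 CPM. In CEBPA-first, A also had the lowest Myb and Myc (318 and 446 CPM), but C had the highest neutrophil sum and Mxd1. Whether the A libraries share a source of difference was not tested. Without CSF3R-first A, 8, 5 and 7 of the 10 genes were called in the 3 comparisons, in the order given above. Over all genes 11679, 6032 and 7499 were then called, in place of 11314, 7578 and 6703. Myb kept its calls between the orders of mutation (log2 fold change 0.70, edgeR adjusted p = 0.000264) and in CSF3R-first against CSF3R-only (0.92, adjusted p = 2.12e-05), as did Myc (0.60 and 0.97, adjusted p = 0.00328 and 5.53e-05) and Mxd1 (-1.30 and -0.51, adjusted p = 3.14e-06 and 0.00515). Calls that were gained or lost without this library are given with each gene.

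**Figure D1:**
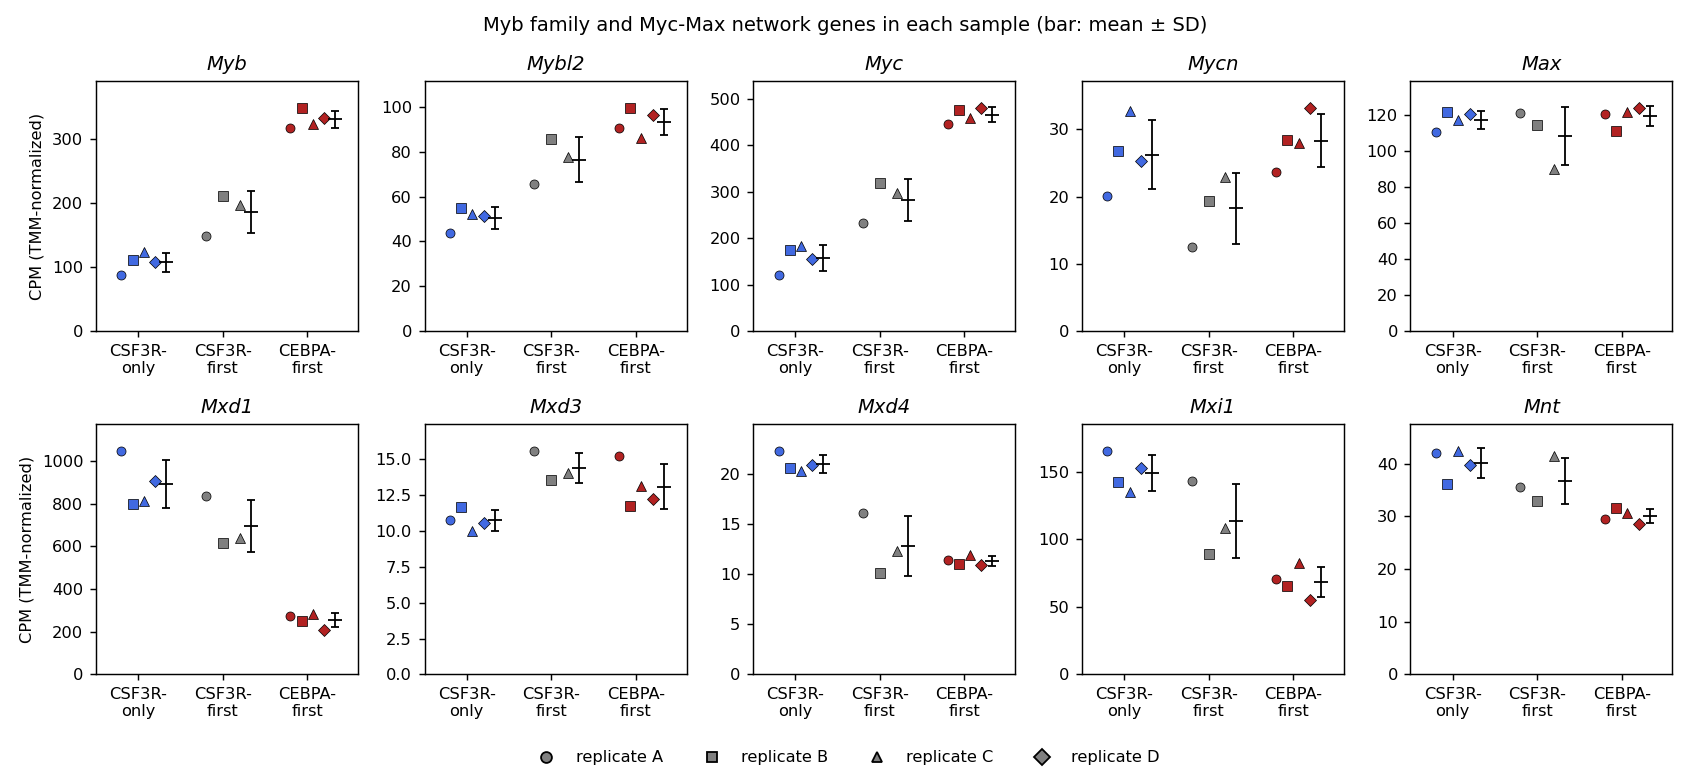
Level of each of the 10 genes in each of the 11 samples, in TMM-normalized CPM from 0, by group; marker shape gives the replicate letter and the bar the mean ± SD. Myb, Myc and Mybl2 are lowest in CSF3R-only and highest in CEBPA-first with CSF3R-first between, Mxd1 drops to between 210.2 and 284 CPM in CEBPA-first, and Max lies between 90.4 and 124 CPM throughout.

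Myc (ENSMUSG00000022346, chr15:61985391-61990374), the growth-promoting activator of the network, was lowest in CSF3R-only, intermediate in CSF3R-first and highest in CEBPA-first. It stood at 119.9, 174, 182 and 155 CPM in CSF3R-only replicates A to D, at 232, 318 and 298 CPM in CSF3R-first A to C, and at 446, 476, 457 and 480.0 CPM in CEBPA-first A to D. The 3 groups were fully separate. Against CSF3R-only, CEBPA-first was higher by a log2 fold change of 1.56 ± 0.13 (SE) (2.95-fold, edgeR adjusted p = 2.25e-07), and against CSF3R-first by 0.72 ± 0.13 (adjusted p = 0.00104). CSF3R-first exceeded CSF3R-only by 0.84 ± 0.13 (adjusted p = 0.000444). In bulk samples, fewer cells of a type and less RNA per cell cannot be told apart, which holds for every level given here.

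Mycn (ENSMUSG00000037169, chr12:12936093-12941914), the paralogue that can replace Myc in haematopoietic cells, followed another order. Its levels were 20.2, 26.7, 32.7 and 25.4 CPM in CSF3R-only, 12.50, 19.3 and 22.9 CPM in CSF3R-first, and 23.7, 28.5, 27.97 and 33.2 CPM in CEBPA-first. CSF3R-first was lowest, and its samples overlapped CSF3R-only but not CEBPA-first. CEBPA-first and CSF3R-only were not distinguished (log2 fold change 0.11, 95% interval -0.27 to 0.49, edgeR adjusted p = 0.583). Mycn was higher in CEBPA-first than in CSF3R-first by 0.63 ± 0.19 (adjusted p = 0.017), a call lost without CSF3R-first A (0.43, adjusted p = 0.0575). It was lower in CSF3R-first than in CSF3R-only by a log2 fold change of -0.52 ± 0.19 (adjusted p = 0.0457). That call was lost when any of 7 samples was left out: CSF3R-only B, C or D, CEBPA-first B or C, and CSF3R-first A or B, with adjusted p up to 0.143. The fold change itself ran from -0.70 without CSF3R-first C to -0.31 without CSF3R-first A, and stayed at -0.52 without CEBPA-first B or C, which belong to neither group compared. The call was also lost with upper quartile scaling (edgeR adjusted p = 0.0569), library size alone (0.134) and only the compared groups.

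Max (ENSMUSG00000059436, chr12:76937269-76962201), the obligate partner of both activators and repressors, was not called in any comparison. Levels were 111, 122, 117 and 120.5 CPM in CSF3R-only, 121, 114 and 90.4 CPM in CSF3R-first, and 121, 111, 122 and 124 CPM in CEBPA-first. Its lowest sample was CSF3R-first C. The 95% intervals of the log2 fold change were -0.15 to 0.20 for CEBPA-first less CSF3R-only, -0.05 to 0.33 for CEBPA-first less CSF3R-first and -0.31 to 0.08 for CSF3R-first less CSF3R-only.

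Among the repressor genes, Mxd1 (ENSMUSG00000001156, chr6:86647042-86669161), whose product MAD1 is associated with exit from proliferation, had the largest difference in both comparisons of CEBPA-first. It was at 1048, 801, 815 and 906 CPM in CSF3R-only, at 838, 614 and 642 CPM in CSF3R-first, and at 273, 249, 284 and 210.2 CPM in CEBPA-first. Every CEBPA-first sample lay far below every other sample, whereas CSF3R-first A lay among the CSF3R-only samples. Mxd1 was lower in CEBPA-first by a log2 fold change of -1.81 ± 0.13 against CSF3R-only (3.51-fold, edgeR adjusted p = 7.22e-08) and of -1.46 ± 0.13 against CSF3R-first (2.75-fold, adjusted p = 4.21e-06). The latter was the only one of the 10 genes past a log2 fold change of 1 between the 2 orders of mutation. In CSF3R-first against CSF3R-only the difference was -0.35 ± 0.13 (adjusted p = 0.0489). That call was lost without any of 7 samples, CSF3R-only A or D, CEBPA-first A, B or C, and CSF3R-first B or C, with adjusted p up to 0.192 and fold changes from -0.51 (without CSF3R-first A) to -0.27 (without CSF3R-first B) over all samples left out. It was also lost with RLE scaling (edgeR adjusted p = 0.0516), library size alone (0.068), no filter on low counts (0.0509) and only the compared groups.

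Mxi1 (ENSMUSG00000025025, chr19:53310518-53375810), which encodes a further MAX-binding repressor, also had its lowest levels in CEBPA-first. It was at 165, 143, 135 and 153 CPM in CSF3R-only, at 144, 89.0 and 108 CPM in CSF3R-first, and at 70.9, 65.7, 82.4 and 55.0 CPM in CEBPA-first. CEBPA-first overlapped neither group. The log2 fold change was -1.12 ± 0.14 against CSF3R-only (edgeR adjusted p = 1.15e-05) and -0.73 ± 0.15 against CSF3R-first (adjusted p = 0.002). For CSF3R-first against CSF3R-only it was -0.39 ± 0.15 and was not called (adjusted p = 0.0553), but it was called without CSF3R-first A (-0.59, adjusted p = 0.00311), CEBPA-first C (adjusted p = 0.0453) or CEBPA-first D (adjusted p = 0.0389), and by DESeq2 (adjusted p = 0.0369). It was also called with no filter on low counts (adjusted p = 0.0407), with at least 10 counts in every sample (adjusted p = 0.0459) and with the replicate letter as a block (adjusted p = 0.0143).

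Mxd4 (ENSMUSG00000037235, chr5:34173883-34187720), encoding the repressor MAD4, was lower in both groups with CEBPA V314VW. It was at 22.3, 20.6, 20.3 and 20.9 CPM in CSF3R-only, at 16.1, 10.1 and 12.4 CPM in CSF3R-first, and at 11.4, 10.98, 11.96 and 10.96 CPM in CEBPA-first. CSF3R-only lay above all other samples, and CSF3R-first B was below all CEBPA-first samples. Relative to CSF3R-only, the log2 fold change was -0.89 ± 0.11 in CEBPA-first (edgeR adjusted p = 1.03e-05) and -0.71 ± 0.12 in CSF3R-first (adjusted p = 0.000824). Between the 2 orders it was -0.18 (95% interval -0.45 to 0.08, adjusted p = 0.233), turning to 0.01 without CSF3R-first A and reaching -0.32 (adjusted p = 0.0219) without CSF3R-first B.

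Mnt (ENSMUSG00000000282, chr11:74830920-74845725), the broadly expressed antagonist of MYC, was at 42.1, 36.1, 42.4 and 39.8 CPM in CSF3R-only, at 35.6, 32.9 and 41.4 CPM in CSF3R-first, and at 29.5, 31.5, 30.6 and 28.5 CPM in CEBPA-first. Its CEBPA-first samples lay below all others. The log2 fold change was -0.42 ± 0.08 against CSF3R-only (edgeR adjusted p = 0.000342) and -0.29 ± 0.08 against CSF3R-first (adjusted p = 0.0136), the latter lost without CSF3R-first C (-0.20, adjusted p = 0.0829). CSF3R-first and CSF3R-only were not distinguished (-0.13, 95% interval -0.31 to 0.06, adjusted p = 0.246).

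Mxd3 (ENSMUSG00000021485, chr13:55325168-55329823), the MXD gene linked to proliferating cells in S phase, went the other way from Mxd1. It was at 10.8, 11.7, 9.98 and 10.5 CPM in CSF3R-only, at 15.6, 13.6 and 14.0 CPM in CSF3R-first, and at 15.2, 11.7, 13.1 and 12.2 CPM in CEBPA-first. CSF3R-only lay below both other groups, by a narrow margin against CEBPA-first. Relative to CSF3R-only, the log2 fold change was 0.42 ± 0.10 in CSF3R-first (edgeR adjusted p = 0.0052) and 0.28 ± 0.09 in CEBPA-first (adjusted p = 0.0151), the latter lost without CEBPA-first A (0.20, adjusted p = 0.059). CEBPA-first and CSF3R-first were not distinguished (-0.14, 95% interval -0.36 to 0.08, adjusted p = 0.275). Mxd3 shares 4.43% of its exon bases with Prelid1 on the opposite strand, which held 19055 to 28382 counts per sample, and whether strand was used in counting is not given in the sources used here, so reads of the pair cannot be told apart over that stretch.

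**Figure D2:**
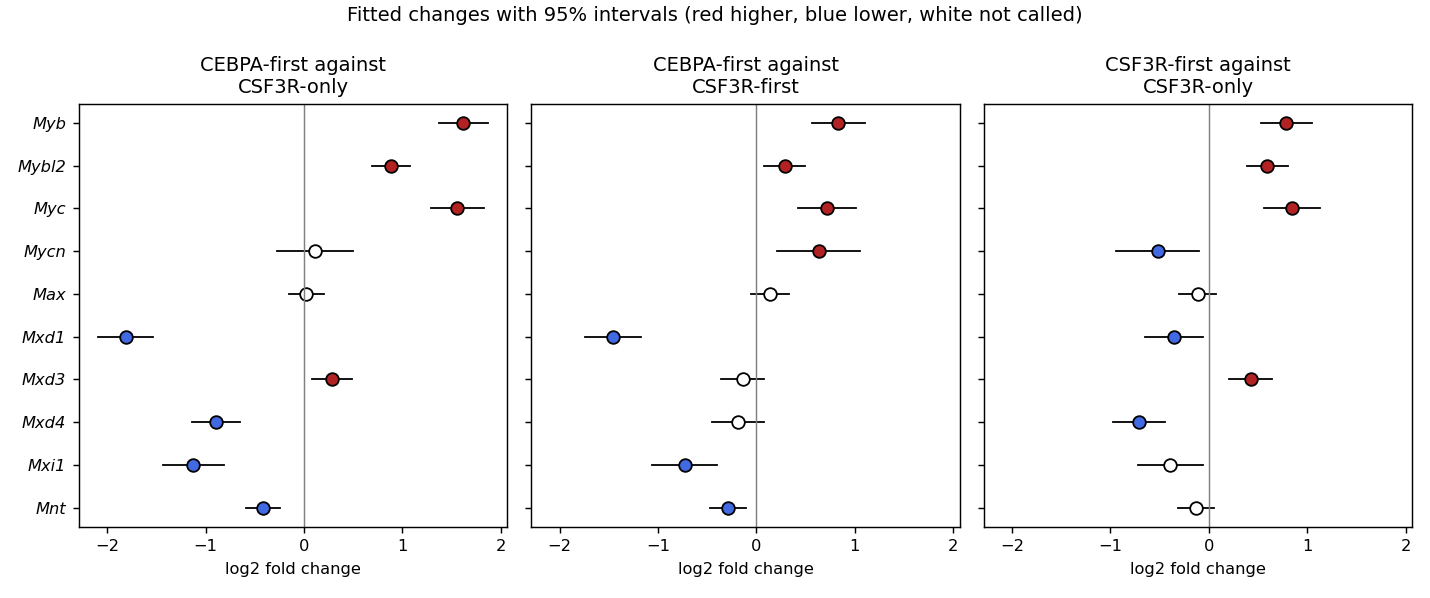
Log2 fold change of each of the 10 genes in the 3 comparisons with its 95% interval; red points are higher, blue points lower and white points not called at an adjusted p under 0.05. Mxd1 has the lowest value in both comparisons of CEBPA-first (-1.81 and -1.46), Myb and Myc are highest in CEBPA-first against CSF3R-only (1.62 and 1.56), and the intervals of Max include 0 in each panel.

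The balance of repressor to activator transcripts was read as a ratio within each sample, of counts per kilobase of exon, which does not depend on scaling between libraries. The ratio of Mxd1 to Myc was 3.36, 1.77, 1.72 and 2.25 in CSF3R-only A to D, 1.39, 0.742 and 0.828 in CSF3R-first, and 0.235, 0.201, 0.239 and 0.168 in CEBPA-first. Means were 2.27 ± 0.761 (SD, n = 4), 0.986 ± 0.351 (SD, n = 3) and 0.211 ± 0.0332 (SD, n = 4), and the groups did not overlap. The ratio was above 1 in every CSF3R-only sample and below 1 in every CEBPA-first sample, also when the length of the longest protein-coding transcript replaced merged exon length (2.24 to 4.38 and 0.219 to 0.311). For CSF3R-first the side of 1 depends on the length used: by transcript length A, B and C were at 1.81, 0.967 and 1.08. The ratio of Mxd1 to Max was 3.88 ± 0.653, 3.29 ± 0.483 and 1.08 ± 0.149 in the same order, where CSF3R-only and CSF3R-first overlapped; by transcript length the means were 3.17, 2.69 and 0.886. The ratio of Myc to Mycn separated the groups in another way, at 7.32 ± 0.464 in CSF3R-only but 19.4 ± 3.41 and 20.1 ± 2.15 in CSF3R-first and CEBPA-first, which overlapped each other.

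**Figure D3:**
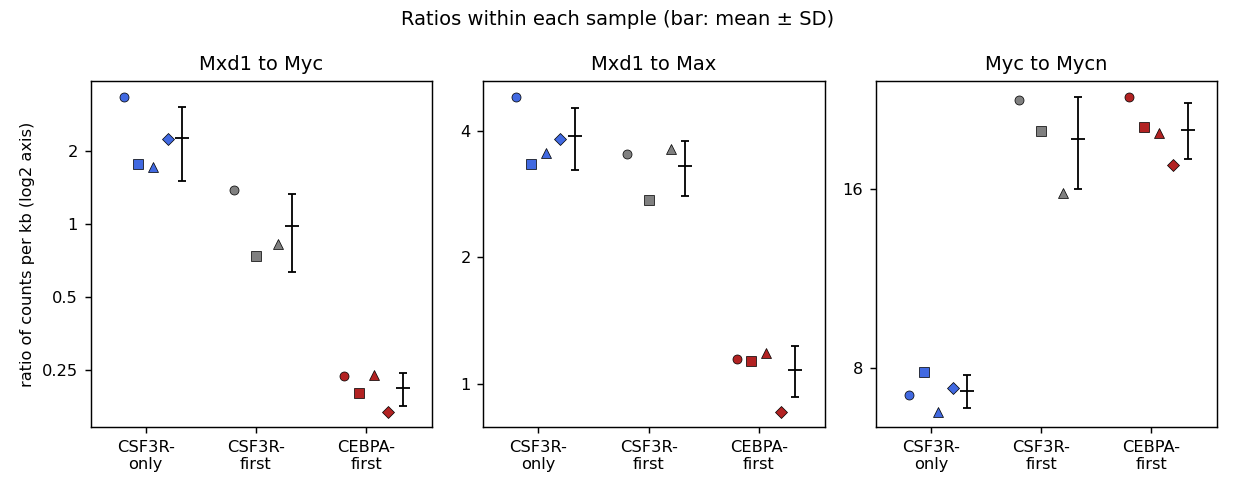
Ratios of counts per kilobase within each of the 11 samples on a log2 axis, with mean ± SD. The ratio of Mxd1 to Myc lies between 1.72 and 3.36 in CSF3R-only and between 0.168 and 0.239 in CEBPA-first, and CSF3R-first lies between them without overlap.

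Per kilobase of merged exon, the order of the levels changed at the top of the network. In CSF3R-only, Mxd1 led at 126 ± 16.1 CPM per kb, followed by Myc at 58.0 ± 10.2, Max at 32.7 ± 1.38 and Mxi1 at 21.9 ± 1.93, with no overlap between these neighbours. Myb (12.1 ± 1.63) and Mybl2 (10.9 ± 1.06) overlapped, as did Mnt (8.66 ± 0.626) and Mycn (7.96 ± 1.56), and Mxd3 (4.53 ± 0.298) and Mxd4 (2.48 ± 0.104) came last. In CSF3R-first, Myc (104 ± 16.6) and Mxd1 (98.7 ± 17.3) overlapped at the top. In CEBPA-first, Myc led at 171 ± 5.98 CPM per kb, and Myb (37.1 ± 1.53), Mxd1 (35.9 ± 4.63) and Max (33.2 ± 1.57) followed, with Mxd1 overlapping both of the others. Mybl2 came next at 20.1 ± 1.28, above Mxi1 at 10.0 ± 1.67 (SD). Parts of this order rest on the length used. By transcript length Myb was at 29.2, 50.3 and 89.6 CPM per kb on average from CSF3R-only to CEBPA-first. In CSF3R-only, Myb then lay above Mybl2 (13.9) without overlap and overlapped Mxi1 (29.6), and Myc (67.4) overlapped Max (60.6). In CSF3R-first, Mxd1 (149.6) had a higher mean than Myc (121), again with overlap. In CEBPA-first, Myb lay above both Max (61.6) and Mxd1 (54.4), which overlapped each other. Mxd1 in CSF3R-only and Myc in CEBPA-first led by either length.

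Myb (ENSMUSG00000019982, chr10:21124935-21160984) rose in steps like Myc. Its levels were 88.6, 111, 124 and 108 CPM in CSF3R-only, 149, 211 and 198 CPM in CSF3R-first, and 318, 349, 323 and 333 CPM in CEBPA-first. The groups did not overlap, and CSF3R-first A was the sample of its group nearest to CSF3R-only. Log2 fold changes were 1.62 ± 0.11 in CEBPA-first against CSF3R-only (3.07-fold, edgeR adjusted p = 7.44e-08), 0.83 ± 0.12 against CSF3R-first (adjusted p = 0.000197) and 0.79 ± 0.12 in CSF3R-first against CSF3R-only (adjusted p = 0.000378). An antisense gene, Gm26577, covers 6.26% of the exon bases of Myb but held only 1 to 9 counts per sample.

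Mybl2 (ENSMUSG00000017861, chr2:163054687-163084688) rose by less. It was at 43.6, 55.1, 52.4 and 51.2 CPM in CSF3R-only, at 65.8, 85.6 and 77.8 CPM in CSF3R-first, and at 90.6, 99.6, 86.3 and 96.4 CPM in CEBPA-first. CSF3R-first B came within 1 CPM of CEBPA-first C, although the groups did not overlap. Relative to CSF3R-only, the log2 fold change was 0.88 ± 0.09 in CEBPA-first (edgeR adjusted p = 1.73e-06) and 0.60 ± 0.10 in CSF3R-first (adjusted p = 0.000562). Between the 2 orders it was 0.29 ± 0.10 (adjusted p = 0.0273), a call lost without CEBPA-first B (0.25), CEBPA-first D (0.27), CSF3R-first A (0.195) or CSF3R-first C (0.29). Over 28.3% of its transcript Mybl2 is near-identical to other annotated sequences, so reads there may be split. Mybl1, the remaining MYB family gene, was at 1.10 to 2.48 CPM and was not called in any comparison (edgeR adjusted p = 0.162, 0.972 and 0.233).

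Genes known as targets of MYC were higher with it. Of 24 listed, 24 were called higher in CEBPA-first against CSF3R-only (median log2 fold change 1.22), 22 between CEBPA-first and CSF3R-first (median 0.55) and 22 in CSF3R-first against CSF3R-only (median 0.58); none was lower in any of them. Over all tested genes 35.4%, 24.0% and 21.6% were called higher, with medians of 0.00, 0.00 and -0.02. Ccnd2, encoding the G1 cyclin D2, was highest in CEBPA-first, at 75.0 to 85.5 CPM against 20.2 to 32.9 in CSF3R-only and 25.6 to 36.8 in CSF3R-first (log2 fold changes of 1.65 ± 0.14 and 1.31 ± 0.15, edgeR adjusted p = 3.46e-07 and 2.9e-05), and was not called between the latter groups (0.34, adjusted p = 0.0851). Shmt2, the mitochondrial serine hydroxymethyltransferase, rose stepwise by 0.75 ± 0.12 and 0.79 ± 0.12 (adjusted p = 0.000487 and 0.000288). CSF3R-first A was the lowest of its group in 23 of the 24 targets and lay within the range of CSF3R-only in 6 of them, whereas B and C did so in 0. Without it 24, 21 and 23 targets were called higher (medians 1.23, 0.44 and 0.71), beside 11679, 6032 and 7499 of all genes called in either direction. The list was chosen with earlier results of these data known and is not independent evidence of its direction.

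Targets of B-MYB and MuvB in mitosis were higher by smaller amounts. All 14 listed were called higher in CEBPA-first against CSF3R-only (median 0.72) and in CSF3R-first against CSF3R-only (median 0.50), and 8 in CEBPA-first against CSF3R-first (median 0.22), where 35.4%, 21.6% and 24.0% of all tested genes were called higher. CSF3R-first A was the lowest of its group in all 14, and without it only 4 were called between CEBPA-first and CSF3R-first (median 0.17). Calls over all genes in that comparison, in either direction, fell from 7578 to 6032. All 14 were still called in each of the other comparisons. Cdk1, the mitotic kinase, differed by 0.89 ± 0.08, 0.59 ± 0.09 and 0.30 ± 0.09 in these comparisons (edgeR adjusted p = 7.96e-07, 0.000352 and 0.0146), and Top2a, the topoisomerase of dividing cells, by 0.86 ± 0.07, 0.50 ± 0.07 and 0.36 ± 0.07 (adjusted p = 1.89e-07, 0.000269 and 0.00178). Of 6 genes in the list of MuvB subunits that includes Foxm1, 5 were called higher in CEBPA-first against CSF3R-only and none lower. Of all tested genes 35.4% were higher and 36.6% lower. Foxm1 rose by 0.80 ± 0.07 (edgeR adjusted p = 5.77e-07) and Lin9 by 0.73 ± 0.10 (adjusted p = 1.51e-05).

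Targets of MYB were mixed. Of 10 listed, 9 were tested (Ccna1 was too low). In CEBPA-first against CSF3R-only 6 were higher and 1 lower, where 35.4% of all tested genes were higher and 36.6% lower. Without CSF3R-first A the counts were 7 and 2, beside 11679 of all genes called in either direction. Elane and Ada, encoding neutrophil elastase and adenosine deaminase, rose by 1.27 ± 0.10 and 1.20 ± 0.09 (edgeR adjusted p = 1.19e-07 and 1.39e-07). Cd34, the progenitor surface marker, averaged 88.8 ± 11.4 CPM (SD, n = 4) among CSF3R-only cells, 44.1 ± 15.0 (n = 3) in CSF3R-first cells and 17.9 ± 1.49 (n = 4) in CEBPA-first cells. In CEBPA-first against CSF3R-only it fell by 2.31 on the log2 scale (adjusted p = 1.46e-07), opposite to Myb itself. Between CEBPA-first and CSF3R-first, 5 MYB targets were higher and 1 lower (24.0% and 24.3% of all tested genes). In CSF3R-first against CSF3R-only, 5 were higher and 2 lower (21.6% and 21.1%).

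The cofactors of the network were called in both directions in CEBPA-first against CSF3R-only, as were all tested genes (35.4% higher and 36.6% lower), and nothing particular to cofactors is read from these counts. Of 7 MYC coactivators 5 were higher and 2 lower, among them the acetyltransferase gene Kat2a (1.21 ± 0.09, edgeR adjusted p = 1.5e-07) and the ATPase gene Ruvbl2 (1.09 ± 0.10, adjusted p = 5.47e-07) above, and Trrap (-0.40 ± 0.07, adjusted p = 0.000276) and Kat5 (-0.15 ± 0.06, adjusted p = 0.0313) below. Of 6 corepressor genes used by MXD and MNT proteins 3 were higher and 2 lower, with Hdac2 at 0.79 ± 0.09 and Sin3a at 0.32 ± 0.07 above, and Sin3b at -0.38 ± 0.06 and Ncor1 at -0.22 ± 0.06 below. Of 6 genes of MYC turnover 5 were higher and none lower, with the ubiquitin ligase gene Skp2 at 1.47 ± 0.08 and the deubiquitinase gene Usp36 at 0.93 ± 0.12. Of 5 MYB cofactors 2 were higher (Psip1 at 0.93 ± 0.08, Men1 at 0.40 ± 0.06) and 3 lower, including Ep300 at -0.49 ± 0.08 and Kmt2a at -0.31 ± 0.09. Of 6 further network genes 5 were tested and 2 were higher, Mga at 0.44 ± 0.10 and Mlx at 0.26 ± 0.06, while Mlxipl was too low to test.

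**Figure D4:**
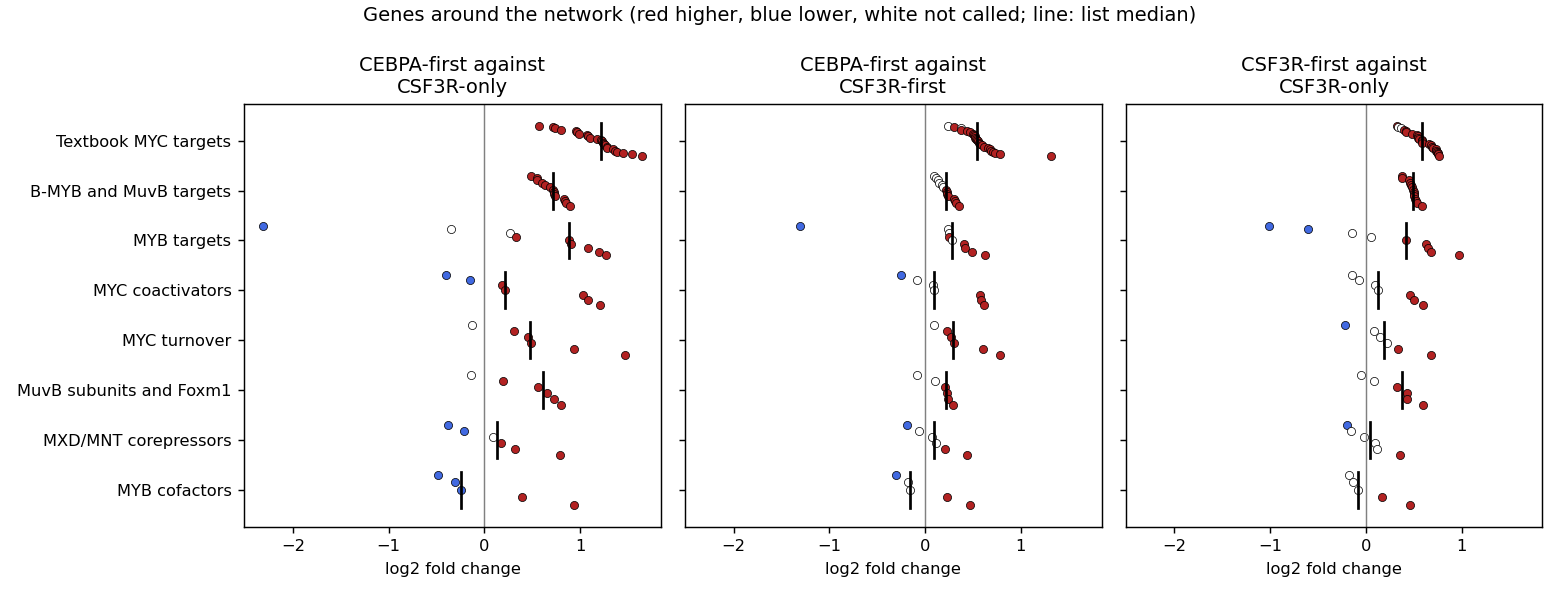
Log2 fold changes of genes around the network in the 3 comparisons; each point is a gene, red if called higher, blue if lower and white if not called, and the line is the median of its list. All 24 MYC targets and all 14 B-MYB targets lie right of 0 in each panel, and Cd34 lies far left among the MYB targets.

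Markers of maturing cells moved with these genes, in a comparison where 36.6% of all tested genes were called lower and 35.4% higher. All 12 neutrophil maturation markers were called lower in CEBPA-first against CSF3R-only, and their summed level ranged from 6482 to 8640 CPM in the CEBPA-first samples, 14662 to 25539 in the CSF3R-first samples and 26879 to 32999 in the CSF3R-only samples. The summed ranges that follow are given from CSF3R-only to CEBPA-first. Of 8 monocyte and macrophage markers 7 were lower and 1 higher (2830 to 3605, 1575 to 2709 and 889 to 1240 CPM summed), all 6 megakaryocyte markers were lower (671 to 908, 251 to 446 and 104 to 152), and 7 of 8 erythroid markers were lower (238 to 364, 112 to 372 and 38.2 to 54.7). Of 6 mast cell and basophil markers 3 were lower and 1 higher (1503 to 2337, 969 to 1164 and 1086 to 1457). Of 8 myeloid progenitor markers 7 were higher and 1, Cd34, was lower (2702 to 3287, 4462 to 5129 and 6063 to 6487), but 4 of the 8 (Kit, Cd34, Mpo and Elane) are also among the 10 MYB targets, so the lists are not separate observations. The B cell and T cell lists summed to at most 6.81 and 5.13 CPM, and Cd3e and Cd8a had no count in any sample. The part of a changed mix of cells in the levels of Myb, Myc and Mxd1 was not tested.

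Genes whose levels ran most like each member were sought among 6027 genes whose mean log2 CPM reached 5, by Pearson's r over the 11 samples, which share the 3 groups and their libraries. For Myb they were Vars, Shmt2, Psat1, Wrnip1 and Eprs (r = 0.998, 0.998, 0.998, 0.997 and 0.996), for Myc Hsp90ab1, Shmt2 and Tomm40 (0.997, 0.997 and 0.996), and for Mybl2 Anp32b, Ctps and Dek (0.999, 0.998 and 0.996). For Mxd1 they were S100a8, Chil1 and S100a9 (0.995 each), of which S100a8 averaged 1131 CPM in CEBPA-first, 5066 in CSF3R-first and 7077 in CSF3R-only. Mycn was followed by Prkca, Adgrg1 and F2r (0.980, 0.945 and 0.936), each lowest in CSF3R-first, and Mxd4 by Yipf3, Herpud2 and Stk17b (0.984, 0.983 and 0.979). With Spearman's correlation only 2 of the 5 genes for Myb and 1 of the 3 for Mycn remained, and none for Mybl2, Myc, Mxd1 or Mxd4, so the identity of these nearest genes depends on the measure.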

How the data were processed

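Bulk RNA-seq of 11 mouse samples was analysed. The authors trimmed reads with Trimmomatic and aligned them with STAR, and the deposited values are raw counts of reads on each gene. The submitters' processing notes name mm10; the counting tool, annotation and strand setting are not given in the sources used here. The table lists 51912 genes, 23409 of them at 0 throughout, and the 279 identifiers lacking a symbol took up to 0.0279% of a library. Positions and exon lengths come from GENCODE on GRCm38, matched by Ensembl identifier, and near-identical stretches (at least 100 bases at 97% identity) were found with BLAST 2.17.0.

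Counts were scaled with TMM, filtered with filterByExpr (15703 genes) and tested with edgeR 4.0.16 (quasi-likelihood, R 4.3.3) with all 3 groups fitted jointly and no covariate. The standard error is the log2 fold change over the square root of F. Log2 CPM used a prior count of 2. Figures used matplotlib 3.10.9. The members and lists were chosen with earlier results of these data known. Members were all named; from each list up to 2 genes called higher and 2 called lower in CEBPA-first against CSF3R-only, by largest change, plus Foxm1 and Mybl1; and the genes most like 6 members. Alternatives were DESeq2 1.42.0, other scalings and filters, only the compared groups, a replicate block, the fold threshold, a prior count of 0.5, Spearman's correlation and each sample left out in turn; scaling by library size alone, and levels per kb and ratios by the length of the longest protein-coding transcript, and target lists without CSF3R-first A, were added after seeing the data. The test was checked on simulated counts; its first acceptance criterion, a number of changed genes recovered, was not met, because genes with low counts or a large spread were missed, and a looser criterion put in its place was discarded. The criteria now used, on bias and on the rate of false calls, were set with the simulated results known, so meeting them is no independent check of the test.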

Additional observations from a re-analysis of the deposited data

How the results depend on the processing

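The numbers of the 10 genes called were 8 for CEBPA-first against CSF3R-only, 7 between CEBPA-first and CSF3R-first, and 7 for CSF3R-first against CSF3R-only. With an absolute log2 fold change over 1 added, they were 4, 1 and 0, and over all genes 4244, 2016 and 1045 in place of 11314, 7578 and 6703. Leaving out each sample in turn gave 7 to 8, 5 to 8 and 5 to 8 of the 10 genes, and 10773 to 11679, 6032 to 7699 and 4620 to 7499 of all genes. The ratio of Mxd1 to Myc ranged from 1.91 to 2.46, 0.785 to 1.11 and 0.201 to 0.225 from CSF3R-only to CEBPA-first, and that of Mxd1 to Max from 3.57 to 4.06, 3.12 to 3.56 and 1.05 to 1.16. By transcript length the latter was 3.17, 2.69 and 0.886, and Mxd1 to Myc in CEBPA-first 0.275. Without CSF3R-first A, 4 in place of 8 of the B-MYB targets were higher between the 2 orders of mutation. Of all genes, 6032 in place of 7578 were then called there in either direction. The direction of Max turned in CEBPA-first against CSF3R-only when each sample had to reach 10 counts (-0.0134) and without CSF3R-only A (-0.0069, up to 0.0576 over the samples left out), and in CSF3R-first against CSF3R-only without CSF3R-first C (0.0215, down to -0.2006); that of Mxd4 turned in CEBPA-first against CSF3R-first without CSF3R-first A (0.0104, down to -0.3236 without CSF3R-first B). No value with the turned sign was called, and the cause was not tested. Scaling by library size alone moved the median of all genes by 0.13 in CEBPA-first against CSF3R-only and gave 6485 genes higher and 4949 lower where TMM gave 5561 and 5753. It gave 4213 and 3501 between the 2 orders of mutation (TMM 3766 and 3812), and 4324 and 2658 in CSF3R-first against CSF3R-only (TMM 3385 and 3318). In that comparison Mxd1 was not called with RLE scaling, library size alone, no filter or only the compared groups, nor Mycn with upper quartile scaling, library size alone or only the compared groups. Whether replicate letters mark pairs cannot be told from the correlations of deviations. Same-letter values ran from -0.107 to 0.363, and some samples were nearest to their own letter while others were not. In CEBPA-first against CSF3R-only, letter D stood at 0.363, against at most -0.0243 for other letters. In CEBPA-first against CSF3R-first, letter C stood at -0.107, against up to 0.212. With the letter as a replicate block, 8, 7 and 8 of the 10 genes were called, and 11501, 7705 and 7216 of all genes; Mxi1 was then called in CSF3R-first against CSF3R-only (-0.46, edgeR adjusted p = 0.0143).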
